A study of Oryza sativa with 39 samples.

Results

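Light perception in rice leaves was followed through 9 genes: the phytochromes PHYA (OS03G0719800), PHYB (OS03G0309200) and PHYC (OS03G0752100), the cryptochromes CRY1a (OS02G0573200), CRY1b (OS04G0452100) and CRY2 (OS02G0625000), the ubiquitin ligase COP1, in rice also called PPS (OS02G0771100), and the basic helix-loop-helix factors OsPIL13 (OS03G0782500) and OsPIL15 (OS01G0286100). They were taken by identifier from the 109715 identifiers of each library, 37830 of which are loci of the reference annotation. The choice was made with earlier results of these data known. The identifiers place 4 of the 9 on chromosome 3, 3 on chromosome 2 and the others on chromosomes 1 and 4. Of the 9, 5 were listed at 0 in all 39 libraries, PHYB had at most a few reads, and the 3 genes CRY1b, CRY2 and COP1 passed the filter on low values.

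Leaves of 13 rice lines were sampled at the tillering stage, at an age labelled as 5 weeks, with 3 replicates per line and 5 plants pooled per replicate. The 4 genetically engineered (GE) lines carry insecticidal genes of Bacillus thuringiensis. In the Xian/Indica (XI) variety MH63 the insert is a synthetic cry1C under a maize ubiquitin promoter (T1C-19) or a cry1Ab/Ac fusion under a rice actin promoter (HH1). In the Geng/Japonica (GJ) variety XS11 a synthetic cry1Ab, again under the maize ubiquitin promoter, was introduced in separate transformation events that gave KMD1 and KMD2, both homozygous. Every GE line is thus a single event. The conventionally bred XI lines XIY63, XXY63, SY63 and JY63 came from crosses of MH63, and the conventionally bred GJ lines CJ03, JH1 and T202 from crosses of XS11. The cry genes of the bacterium share only a short name with the plant cryptochromes CRY1 and CRY2 and are unrelated to them.

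Phytochromes sense red and far-red light, and cryptochromes sense blue light. In darkness COP1 marks factors that promote light responses for degradation, and active photoreceptors hold it back. PIL proteins are the rice relatives of the phytochrome interacting factors of Arabidopsis, which bind DNA and turn over when phytochrome is activated.

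The libraries held 3.99e+06 to 8.32e+06 reads on genes (median 5.49e+06). These reads were computed from the deposited FPKM, whose values moved in steps of 1 read, and they could be off by a factor common to all libraries. FPKM are fragments per kilobase of gene length, here scaled per library by a median-of-ratios size factor and not by the plain read total. The share of these reads that fell on predicted genes, which carry only a running number and no locus name, ran between 12.0% and 22.2%. It averaged 13.2% ± 0.387 in HH1, the lowest of the 13 lines, and 21.8% ± 0.686 in XIY63, the highest (SD, n = 3 each). No pair of replicates looked like a library deposited more than once, since the chi-square between their reads was at least 3.75 per gene in all 39 pairs. The leaf identity of the samples could not be checked, because the 4 identifiers set down as photosynthetic markers were themselves near 0. The names behind these 4 identifiers could not be checked in the tables used here, so their low values may not be those of photosynthetic genes. OS11G0707000, set down as Rubisco activase, was listed at 0 in all 39 libraries. OS01G0600900, set down as the light-harvesting protein CAB2R, was above 0 in 1 library. OS09G0346500 (set down as CAB1R) and OS12G0274700 (set down as a Rubisco small subunit) reached at most 1.39 and 1.09 FPKM.

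Among the receptors, PHYA, PHYC and CRY1a were listed at 0 in every library of every line. PHYA is the main far-red receptor of seedlings, PHYC is a phytochrome that works together with PHYB, and CRY1a is the paralogue of CRY1b. The phytochrome interacting factors OsPIL13, which promotes internode elongation in rice, and OsPIL15, which in rice acts on seedling growth and on grain size, were listed at 0 throughout as well. A count of 0 allows up to 3 reads in a library, and this limit covers counting error only. A value of 0 cannot be read as absence of the transcript in these files, since 13906 of the 37830 reference loci, or 36.8%, were at 0 in all 39 libraries. The share was alike on all chromosomes, between 35.3% on chromosome 4 and 38.4% on chromosome 10. The cause of these values was not tested.

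PHYB, the main red light receptor of green plants, was close to 0 in all lines. Its 13 reads came from 10 of the 39 libraries. T202 replicate 2 held 4 of them, at 0.168 FPKM, and the other libraries with a read had 1 each, at 0.0278 to 0.0544 FPKM. For this gene of 3964 bases, 3 reads correspond to 0.0833 to 0.19 FPKM depending on the library. With so few reads, differences between lines were not detectable. These low values cannot be read as a low level of the transcript here, and their cause was not tested. PHYB failed the filter and entered no test.

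**Figure D1:**
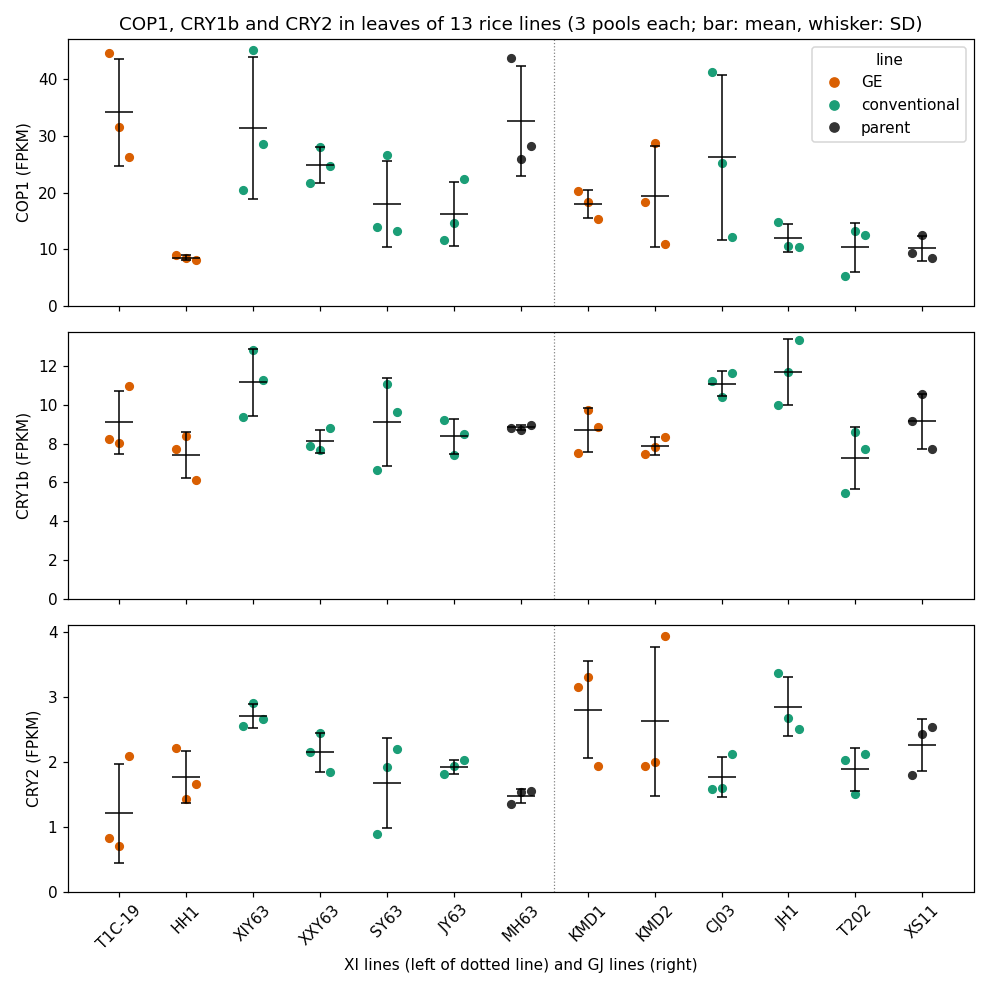
FPKM of COP1, CRY1b and CRY2 (vertical axes, from 0) in each of the 3 pooled replicates of 13 rice lines, with the line mean (bar) and SD (whisker). The dotted line parts XI from GJ lines, and colours mark GE lines, conventionally bred lines and the parents. COP1 had its lowest line mean, 8.52 FPKM, in HH1 and its highest, 34.2 FPKM, in T1C-19, while line means of CRY1b ran between 7.26 and 11.7 FPKM.

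The 3 genes that passed the filter kept an order within nearly all libraries. FPKM are per length. The ratios below are of the listed values, and whether they hold for the transcripts was not tested in files where many loci are at 0. COP1 was above CRY1b in 36 of the 39 libraries, with a median ratio of 2.08, and CRY1b was above CRY2 in all 39, with a median ratio of 4.38. The ratio of COP1 to CRY1b was smallest in JH1 replicate 3 (0.774) and largest in T1C-19 replicate 1 (5.41). The ratio of CRY1b to CRY2 was smallest in KMD2 replicate 3 (2.12) and largest in T1C-19 replicate 2 (11.3). Over the 39 libraries, which share lines and library effects, the Pearson correlation of log2(FPKM + 1) was 0.31 between COP1 and CRY1b, -0.24 between COP1 and CRY2 and 0.28 between CRY1b and CRY2.

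COP1 carried the widest range, between 5.32 and 45.1 FPKM over the 39 libraries (82 to 982 reads, gene length 2667 bases). Line means differed 4.01-fold at the extremes, against 1.61-fold for CRY1b and 2.36-fold for CRY2. Of the variation of COP1 on the log2(FPKM + 1) scale, 13.05% lay between the subspecies, 58.5% between lines of a subspecies and 28.5% between replicates of a line. For CRY2 these shares were 14.7%, 43.6% and 41.7%, and for CRY1b they were 1.11%, 58.3% and 40.6%. With lines sorted by mean, the replicate range of every line overlapped that of the line next below it in all 3 genes. Such overlap of neighbours does not test whether lines differ.

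Among the GE lines of MH63, COP1 moved in HH1. HH1 had 8.98, 8.46 and 8.12 FPKM of COP1, T1C-19 had 44.7, 31.5 and 26.3 FPKM, and the parent MH63 had 43.7, 25.9 and 28.2 FPKM. All 3 HH1 values lay below all 3 MH63 values, whereas those of T1C-19 and MH63 overlapped. COP1 averaged 8.52 ± 0.43 FPKM in HH1 and 32.6 ± 9.67 FPKM in MH63 (SD, n = 3 each), a ratio of means of 0.261. On the log2(FPKM + 1) scale the change was -1.78 (SE 0.20, limma, Benjamini-Hochberg adjusted p = 0.000648). It was a DEG, which here means an adjusted p below 0.05 with a 2-fold or larger change in either direction. In HH1/MH63 17.6% of all genes tested were DEGs and 38.5% passed the adjusted p alone, the highest shares of the 11 comparisons of a line with its parent. In T1C-19/MH63 the COP1 change was 0.07 (95% interval -0.51 to 0.65), and none of the 3 genes was called, with DEGs at 2.23% and 2.96% of all genes past the adjusted p alone.

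The COP1 difference between HH1 and MH63 ran alongside a difference in library composition. The share of reads on predicted genes ran between 12.9% and 13.6% in HH1 and between 16.9% and 20.1% in MH63, so the groups did not overlap. With this share as a covariate in a model of all 39 libraries, chosen after the data were seen, the COP1 change was -0.32 (SE 0.36, adjusted p = 0.693), and the number of DEGs over all genes in HH1/MH63 was 503, against 3560 in the same model without the covariate. The slope of that model comes from differences between replicates of a line, and the share in HH1 lies below every value seen in MH63, so line and share cannot be told apart in this comparison. Depth did not overlap either, with at most 4.35e+06 reads on genes in HH1 and at least 6.46e+06 in MH63. Genes detected were at most 24288 in HH1 and at least 26156 in MH63. Line and these 2 measures cannot be told apart here.

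In the GE lines of XS11 the COP1 values were higher than in the parent. KMD1 had 20.3, 18.3 and 15.3 FPKM, KMD2 had 18.4, 28.7 and 10.99 FPKM, and XS11 had 9.40, 12.6 and 8.44 FPKM. KMD1 did not overlap with XS11, and KMD2 did. In KMD1 the change was 0.78 (SE 0.18, adjusted p = 0.046), which passed the adjusted p but not the fold change of 2, with 8.07% of all genes past the adjusted p alone and 3.96% DEGs. In KMD2 it was 0.79 (SE 0.32, adjusted p = 0.111), and no member was called there, where 13.4% of genes were DEGs and 24.4% passed the adjusted p alone. The KMD2 change was 0.47 (adjusted p = 0.297) without KMD2 replicate 2, 1.12 (adjusted p = 0.022) without KMD2 replicate 3 and 1.10 (adjusted p = 0.0474) with plain read totals, a DEG in the last 2 of these. The share of reads on predicted genes was 17.5% ± 0.859 in KMD1 and 19.04% ± 1.88 in KMD2, against 14.04% ± 0.973 in XS11 (SD, n = 3 each). With it as a covariate the COP1 changes were -0.16 (adjusted p = 0.902) in KMD1 and -0.49 (adjusted p = 0.477) in KMD2. The share was at least 16.8% in KMD1 and 17.2% in KMD2, and at most 15.2% in XS11. Line and share cannot be told apart in these comparisons either. The KMD1 call did not hold without the filter (adjusted p = 0.0986), with the default variance trend (0.0685) or with all 39 libraries in 1 model (0.137). It held with XS11 replicate 2 left out and was lost with each of the other 5 libraries left out (KMD1 replicates 1, 2 and 3 and XS11 replicates 1 and 3), at adjusted p between 0.115 and 0.151.

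The COP1 changes of the GE lines were also compared between the backgrounds, as the mean change of T1C-19 and HH1 against MH63 minus that of KMD1 and KMD2 against XS11. The difference was -1.64 for COP1 (SE 0.45, adjusted p = 0.00954), and the GE lines of MH63 did not move together, with 0.07 in T1C-19 and -1.78 in HH1. The SE is that of libraries, and each background has 2 events. It was 0.02 (95% interval -0.38 to 0.42) for CRY1b and -0.20 (95% interval -0.72 to 0.32) for CRY2. Over all genes, 12.2% were called at a 2-fold difference and 23.4% by the adjusted p alone. With the share of reads on predicted genes as a covariate the COP1 difference was -0.02 (adjusted p = 0.993). Line and share cannot be told apart in HH1, KMD1 and KMD2, which enter this difference.

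**Figure D2:**
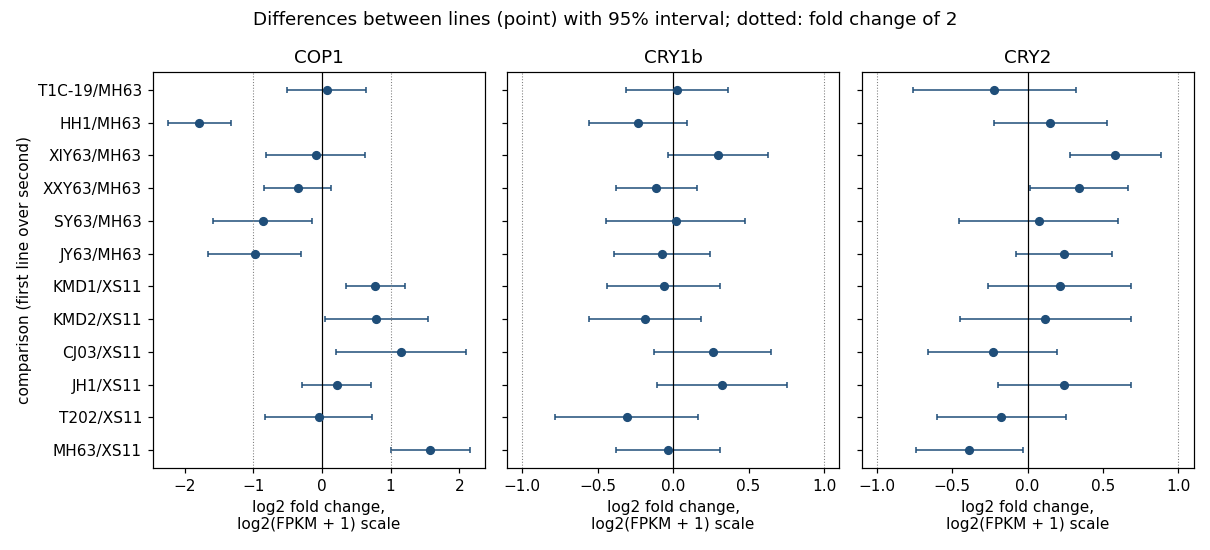
Log2 fold changes of COP1, CRY1b and CRY2 (points, log2(FPKM + 1) scale, horizontal axes) with 95% intervals in the 11 comparisons of a line with its parent and in MH63 against XS11 (rows, first line over second). Dotted lines mark a fold change of 2. The intervals of COP1 in HH1/MH63 and KMD1/XS11 lie on opposite sides of 0, at -1.78 and 0.78.

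In the conventionally bred lines none of the 3 tested genes was a DEG in the pairwise tests. COP1 was at 11.5, 14.6 and 22.4 FPKM in JY63 and at 13.9, 26.6 and 13.2 FPKM in SY63, against the MH63 values above. The JY63 replicates all lay below MH63, and SY63 overlapped with it. The changes were -0.98 (SE 0.29, adjusted p = 0.0826) in JY63 and -0.86 (SE 0.31, adjusted p = 0.106) in SY63. The share of reads on predicted genes was 15.5% ± 1.56 in JY63 and 14.6% ± 1.47 in SY63, against 18.7% ± 1.64 in MH63 (SD, n = 3 each), and with it as a covariate the COP1 changes were -0.18 (adjusted p = 0.776) in JY63 and 0.19 (adjusted p = 0.808) in SY63. The share was at most 15.6% in SY63 and at least 16.9% in MH63, so line and share cannot be told apart in SY63/MH63. JY63 reached 17.3% and overlapped with MH63 in the share. JY63/MH63 had 5.58% DEGs and 7.94% of genes past the adjusted p alone, and SY63/MH63 had 8.35% and 12.4%. COP1 in SY63 without replicate 2 was -1.17 with an adjusted p of 0.0416. XXY63 had 21.7, 28.0 and 24.8 FPKM of COP1, a change of -0.35 (95% interval -0.84 to 0.14) in a comparison with 4.19% DEGs and 6.08% past the adjusted p.

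In XIY63 the gene that passed was CRY2. CRY2, the blue light receptor linked in rice to flowering time, had 2.56, 2.91 and 2.65 FPKM in XIY63 (46 to 47 reads) and 1.35, 1.53 and 1.55 FPKM in MH63 (29 to 42 reads). The groups did not overlap. The change was 0.58 (SE 0.13, adjusted p = 0.0254), below a fold change of 2, with 14.2% of all genes past the adjusted p alone and 8.78% DEGs. This call rested on the full set of libraries, since with any of the 6 libraries left out the adjusted p ran between 0.0595 and 0.114, with all 39 libraries in 1 model it was 0.0524, and the share covariate gave 0.52 with an adjusted p of 0.149. CRY1b in XIY63 was at 9.36, 12.8 and 11.3 FPKM, all above 8.82, 8.72 and 8.95 FPKM in MH63, with a change of 0.30 (SE 0.14, adjusted p = 0.213). COP1 had 20.4, 45.1 and 28.6 FPKM in XIY63, overlapping with MH63, and did not pass, at -0.09 (95% interval -0.81 to 0.63). With the share as a covariate, which was highest in XIY63, the COP1 change was -0.75 (SE 0.28, adjusted p = 0.0706).

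In the GJ background, CJ03 had the widest replicate spread of COP1, with 41.2, 25.3 and 12.2 FPKM, against the XS11 values given above. The change was 1.15 (SE 0.40, adjusted p = 0.0972), in a comparison with 10.3% DEGs and 14.4% of genes past the adjusted p. It became a DEG without CJ03 replicate 3 (1.60, adjusted p = 0.0185) and with all 39 libraries in 1 model (1.15, adjusted p = 0.018). Without CJ03 replicate 1 it was 0.76 (adjusted p = 0.197), and with the share of reads on predicted genes as a covariate, 17.3% ± 2.27 in CJ03 and 14.04% ± 0.973 in XS11 (SD, n = 3 each), it was 0.28 (adjusted p = 0.614). The lowest share in CJ03, 15.4%, lay above the highest in XS11, 15.2%, so line and share cannot be told apart in CJ03/XS11. COP1 changed by 0.21 (95% interval -0.29 to 0.72) in JH1, where 3.08% of genes were DEGs and 3.24% passed the adjusted p. In T202 it changed by -0.05 (95% interval -0.82 to 0.73), where 9.71% were DEGs and 14.5% passed.

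CRY2 was the lowest of the 3 genes in every library. T1C-19 had 0.823, 0.71 and 2.085 FPKM of CRY2 (14 to 42 reads), the lowest line mean at 1.21 ± 0.764 FPKM (SD, n = 3), and it overlapped with MH63. KMD1 had 3.16, 3.31 and 1.94 FPKM and KMD2 had 1.93, 1.997 and 3.94 FPKM, against 1.79, 2.43 and 2.54 FPKM in XS11, and both overlapped with the parent. The highest line mean was that of JH1, 2.85 ± 0.46 FPKM (SD, n = 3). Its 3 replicates lay above all 3 of T1C-19, but these lines were picked as the extremes of the line means. XXY63 (1.85 to 2.45 FPKM) and JY63 (1.81 to 2.03 FPKM) lay above MH63 in every replicate, with changes of 0.34 (95% interval 0.02 to 0.67, adjusted p = 0.243) and 0.24 (95% interval -0.08 to 0.56, adjusted p = 0.293) that did not pass.

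CRY1b had the narrowest range of the 3, 2.45-fold between the highest and the lowest library, with 120 to 376 reads per library over a length of 4628 bases. In MH63 its replicates stayed within 8.72 to 8.95 FPKM. HH1 had 7.71, 8.40 and 6.11 FPKM, all below MH63, with a change of -0.24 (95% interval -0.56 to 0.09, adjusted p = 0.221) that did not pass. KMD1 had 7.49, 9.74 and 8.84 FPKM and KMD2 7.44, 7.83 and 8.34 FPKM, against 9.16, 10.6 and 7.72 FPKM in XS11, with overlap in both. In JH1 the change against XS11 was 0.32 (95% interval -0.11 to 0.76), and in T202 it was -0.31 (95% interval -0.78 to 0.17).

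Over the 11 comparisons together, 1 of the 33 tests of a member with its parent gave a DEG, COP1 in HH1, where 7.91% of the tests over all genes did. The 6 comparisons with MH63 share its 3 libraries, and the 5 with XS11 share those of XS11. In GE lines the COP1 changes ran between -1.78 and 0.79, and in conventionally bred lines between -0.98 and 1.15. CRY1b ran between -0.24 and 0.03 in GE lines and between -0.31 and 0.32 in conventionally bred lines. CRY2 ran between -0.22 and 0.21 in GE lines and between -0.23 and 0.58 in conventionally bred lines. These ranges are descriptions over 4 and 7 lines, and the breeding methods were not tested against each other for the members.

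Between the parents, MH63 exceeded XS11 in COP1. The averages were 32.6 ± 9.67 FPKM in MH63 and 10.1 ± 2.15 FPKM in XS11 (SD, n = 3 each), 3.22 times as much, with no overlap of the replicates. The change was 1.57 (SE 0.24, adjusted p = 0.00208), a DEG, in a comparison where 33.8% of all genes were DEGs and 52.9% passed the adjusted p alone. CRY2 went the other way with 1.35, 1.53 and 1.55 FPKM in MH63, against 1.79, 2.43 and 2.54 FPKM in XS11. The groups did not overlap, and the change of -0.39 (SE 0.15, adjusted p = 0.0655) did not pass. CRY1b differed by -0.04 (95% interval -0.38 to 0.31). The share of reads on predicted genes was 18.7% ± 1.64 in MH63 and 14.04% ± 0.973 in XS11 (SD, n = 3 each), and with it as a covariate the COP1 change was 0.37 (SE 0.33, adjusted p = 0.419). The share was at least 16.9% in MH63 and at most 15.2% in XS11, so line and share cannot be told apart here. Reads on genes (at least 6.46e+06 in MH63, at most 5.45e+06 in XS11) did not overlap either. The same held for genes detected (at least 26156 and at most 26027).

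None of the 3 genes passed the test between the subspecies. COP1 line means averaged 23.7 ± 9.74 FPKM in XI lines (SD, n = 7) and 16.0 ± 6.37 FPKM in GJ lines (SD, n = 6). They ran between 8.52 and 34.2 FPKM in XI lines and between 10.1 and 26.2 FPKM in GJ lines, so the GJ range lay inside the XI range. The XI minus GJ difference was 0.52 (SE 0.31, adjusted p = 0.197), and the exact two-sided permutation test over all splits of the 13 line means into 7 and 6 gave p = 0.143. Without HH1 it was 0.72 with an adjusted p of 0.0352. For CRY2 the line means were 1.84 ± 0.486 FPKM in XI lines (SD, n = 7) and 2.36 ± 0.468 FPKM in GJ lines (SD, n = 6), with a difference of -0.25 (SE 0.14, adjusted p = 0.176, exact permutation p = 0.0798). CRY1b differed by -0.05 (95% interval -0.33 to 0.22, exact permutation p = 0.66). Over all genes 19.9% were DEGs between the subspecies and 39.5% passed the adjusted p alone. Lines of a subspecies share a parent and are not independent, and the reference genome is that of a GJ variety, so sequence differences that affect alignment and expression differences cannot be told apart here.

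Across lines rather than pairs, all 3 genes differed. A moderated F test over the 13 lines passed for COP1 (adjusted p = 0.000101), CRY1b (adjusted p = 0.00947) and CRY2 (adjusted p = 0.00993), as it did for 78.2% of all genes. Among the 7 XI lines it passed for COP1 (adjusted p = 0.000472), and CRY2 (adjusted p = 0.0556) and CRY1b (adjusted p = 0.175) did not pass, where 55.5% of genes did. CRY2 passed among the XI lines without T1C-19 replicate 3 (adjusted p = 0.00423), without SY63 replicate 1 (0.0222) or without SY63 replicate 3 (0.0363). Among the 6 GJ lines it passed for CRY1b (adjusted p = 0.0256), and COP1 (adjusted p = 0.0864) and CRY2 (adjusted p = 0.242) did not, where 42.9% of genes did. COP1 passed among them without CJ03 replicate 3 (adjusted p = 0.0174) or KMD2 replicate 3 (0.0471). CRY1b, a blue light receptor that acts with COP1, was highest in JH1 at 9.98, 11.7 and 13.4 FPKM and lowest in T202 at 5.46, 8.58 and 7.73 FPKM. These ranges did not overlap, but the lines were picked as the extremes of the line means. Without JH1 replicate 2 or 3 the adjusted p of CRY1b among GJ lines was 0.0529 and 0.0583.

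With the share of reads on predicted genes as a covariate, CRY1b and CRY2 still passed over the 13 lines (adjusted p = 0.0113 and 0.0121), and COP1 did not (adjusted p = 0.0517). COP1 then failed among the XI lines (adjusted p = 0.334) and passed among the GJ lines (adjusted p = 0.0482), and CRY2 passed among the XI lines (adjusted p = 0.0366). Several lines did not overlap in the share, so line and share cannot be fully told apart in these tests.

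**Figure D3:**
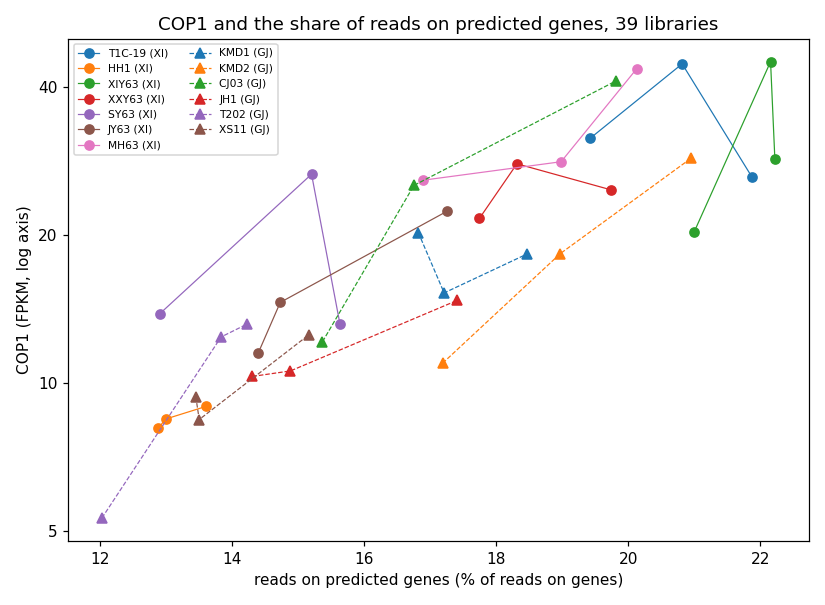
COP1 level (FPKM, log axis) against the share of reads on predicted genes (percent of reads on genes) in 39 libraries. Symbols and line styles mark XI (circles, solid) and GJ lines (triangles, dashed), and each line joins the 3 replicates of 1 rice line in order of the share. HH1, with 12.9% to 13.6%, lies at the low end of both axes, and T202 replicate 1, with 12.0%, has the lowest COP1, 5.32 FPKM.

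The relation between COP1 and the share of reads on predicted genes held between replicates of the same line. After the line mean was taken off each value, the Pearson correlation was 0.743 (p = 0.00012) and the Spearman correlation 0.711 (p = 0.00022) over the 39 libraries, in two-sided permutations within lines. The values adjusted over 9 relations, of 3 genes with 3 library measures, were 0.00108 and 0.00198. Without the 2 libraries farthest out in the share, CJ03 replicate 1 and JH1 replicate 1, the Pearson correlation was 0.707. In 8 of the 13 lines the replicate with the highest share also had the highest COP1, and in 9 the lowest matched. CRY1b gave 0.376 (adjusted p = 0.206) and CRY2 0.135 (adjusted p = 0.61). With the number of reads on genes COP1 gave 0.335 (adjusted p = 0.343), and with the number of genes detected 0.31 (adjusted p = 0.343).

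Over line means, which are descriptions here, the correlation of COP1 with the share was 0.931 in the 7 XI lines and 0.878 in the 6 GJ lines. CRY1b had 0.727 and 0.161, and CRY2 0.136 and 0.338. The slope of COP1 within lines was 2.93 (SE 0.51, adjusted p = 8.18e-05), in units of log2(FPKM + 1) for a doubling of the share, and 11.4% of all genes had a positive slope that passed. The slopes of CRY1b (0.61, adjusted p = 0.165) and CRY2 (0.29, adjusted p = 0.704) did not pass. COP1 itself is a named locus and is not part of the predicted share.

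**Figure D4:**
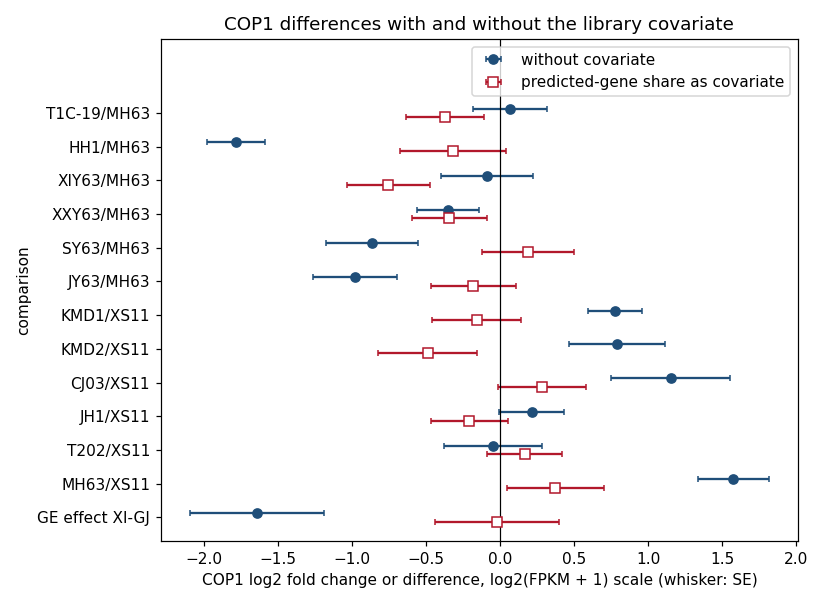
COP1 log2 fold changes (points, with SE) in 12 comparisons of lines and in the difference of the GE effect between XI and GJ backgrounds, without a covariate (filled circles) and with the share of reads on predicted genes as a covariate (open squares). In HH1/MH63 the values are -1.78 and -0.32, and in MH63/XS11 they are 1.57 and 0.37.

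Among the reference loci with a mean of at least 1 FPKM, OS03G0191100 had the pattern over the 39 libraries most like that of COP1. Its Pearson correlation with COP1 was 0.952 on the log2(FPKM + 1) scale. For CRY2 it was OS05G0591900 at 0.744, and for CRY1b it was OS12G0234000 at 0.681. Only reference loci were considered, the choice of these loci was made after the values were seen, and the tables used here give no names for them.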

How the data were processed

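Leaf RNA of 39 libraries was measured by RNA-seq. Per the labels, the authors aligned reads to IRGSP-1.0 with HISAT2 2.09 and counted them per gene with featureCounts 1.5.0-p3. The authors used DESeq2 for their own differential expression tests, which were not used here. The authors deposited FPKM values, 1 file per library. The deposited FPKM rise in steps of 1 read, and 1036151 of 1036152 values above 0 were whole reads within 0.01. The read total behind each library's FPKM was the same after division by a median-of-ratios size factor, so this scaling is already included.

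Pairs of lines were tested with limma 3.58.1 (R 4.3.3) on log2(FPKM + 1) from their 6 libraries, with a variance trend over mean log2 reads, for genes at 0.5 FPKM or more in at least 3 libraries. P-values were adjusted over all tested genes by Benjamini and Hochberg, also in the F tests over lines and in the difference of the GE effect (all 39 libraries). XI and GJ were compared over line means. Fold changes on this scale understate those of low genes. Relations with library measures used 100000 permutations. Tables were made in Python 3.11.15 (pandas 2.3.3, numpy 2.4.6, scipy 1.17.1) and figures with matplotlib 3.10.9.

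Alternatives were a pseudocount of 0.1, no filter, the default trend, a replicate block, all 39 libraries in 1 model, voom on reads, plain read totals, the 9 lines that are not GE, and each library or line left out. The share of reads on predicted genes as a covariate was added after the data were seen. The members and lists were chosen with earlier results of these data known. All 9 members are named. Other light signalling genes and the most similar gene were to be named through the reference table, which matched 0 of the identifiers, so a list of further light signalling genes, glutelin markers, sequences and coordinates were not used here. Gene names are those of the member list. Parents and subspecies follow the study's methods.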

Additional observations from a re-analysis of the deposited data

Results flagged for a closer look

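The contrast of T1C-19 and HH1 with MH63 minus that of KMD1 and KMD2 with XS11 gave a COP1 difference of -1.64 on the log2(FPKM + 1) scale (SE 0.45, limma adjusted p = 0.00954). Each background has 2 events, the SE is that of libraries, and the events of MH63 did not move together (0.07 in T1C-19 and -1.78 in HH1), so the difference is not shown to be one between backgrounds. The share of reads on predicted genes moved with it, and with this share in the model the difference was -0.02. Line and share cannot be told apart in HH1, KMD1 and KMD2. Among the line means of COP1, CRY1b and CRY2, no XI or GJ line lay far enough from the others to stand apart by Dixon's criterion.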

How the results depend on the processing

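With the share of reads on predicted genes as a covariate, added after the data were seen, 0 members were DEGs in the 11 comparisons of a line with its parent (5.38% of tests over all genes), 0 in MH63/XS11 (24.0% of genes) and 0 in the difference of the GE effect (1.64%), and 2 passed among the GJ lines (31.8%). In the same model of all 39 libraries without the covariate, 2 tests in the 11 comparisons gave a DEG, COP1 in HH1 and in CJ03. Over all genes 9.32% of tests did. The pairwise tests of the members gave 1. With the covariate COP1 changed sign in T1C-19/MH63 (-0.37), SY63/MH63 (0.19), KMD1/XS11 (-0.16), KMD2/XS11 (-0.49), JH1/XS11 (-0.21) and T202/XS11 (0.17). The shares did not overlap in HH1, SY63 and XIY63 against MH63, in KMD1, KMD2 and CJ03 against XS11, or in MH63/XS11. Line and share cannot be told apart in those comparisons. With plain read totals 3 tests in the 11 comparisons gave a DEG, all of COP1, in HH1, KMD1 and KMD2. Over all genes 8.22% of tests did. COP1 in T202/XS11 was 0.069 with these totals. That scaling moved the median of all genes by 0.18 in KMD1/XS11 and 0.23 in KMD2/XS11. The cause was not tested.

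With libraries left out in turn, the number of tests with a DEG over the 11 comparisons ran between 1 and 2. Members that passed ran between 1 and 2 among the XI lines and between 0 and 2 among the GJ lines. With all libraries kept, 7.91% of tests over all genes gave a DEG, and 55.5% and 42.9% of genes passed among XI and GJ lines. Such shares are not given for the runs with a library left out. Over the 11 comparisons 2 tests gave a DEG, both of COP1, without CJ03 replicate 3, KMD2 replicate 3 (COP1 1.12, adjusted p = 0.022) or SY63 replicate 2. Among the GJ lines 2 members passed without CJ03 replicate 3 or KMD2 replicate 3. COP1 ran between -0.14 and 0.29 in T1C-19/MH63, between -0.38 and 0.17 in XIY63/MH63 and between -0.26 and 0.33 in T202/XS11, changing sign. In HH1/MH63 it ran between -1.93 and -1.56 and in MH63/XS11 between 1.35 and 1.72, a DEG each time.

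Replicate numbers did not pair the samples: in no comparison was the correlation of same-numbered deviations over 0.1 in all 3 pairs. With the replicate block, 1 member was a DEG over the 11 comparisons and 1 in MH63/XS11, as without it. Over all genes the block gave DEGs in 7.26% of tests over the 11 comparisons and 33.0% in MH63/XS11. The adjusted p of COP1 in KMD2/XS11 was 0.0321 with the block and that of CRY2 in XIY63/MH63 was 0.0518. CRY2 rests on 12 to 67 reads per library, and PHYB had too few reads for a test.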
